A study of Mus musculus with 6 samples.

Results

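The 43 genes described here encode proteins of homologous recombination, the Fanconi crosslink repair pathway, break sensing and checkpoint signalling, and non-homologous end joining. They were listed by name, by a rule that uses no measured value but was written with earlier results of these data known, from the 41126 genes in the table of all genes. All 43 had enough reads to enter the test, which covered 15462 genes. For the description they were divided by role into 6 groups: 9 genes of the BRCA complex and the recombination mediators, 6 of resection, helicases and strand exchange motors, 11 of the Fanconi pathway, 10 break sensors and checkpoint genes, 3 genes of the chromatin around a break, and 4 end joining genes.

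RNA was sequenced from ventral dermal fibroblasts cultured from mice at postnatal day 4 (P4) on a mixed CD1 and C57Bl6 background, to ask how stabilization of β-catenin changes gene expression. The 3 GOF (gain of function) cultures had received an adenovirus carrying Cre recombinase (AdCre) and are labelled Ctnnb1 Δex3/+. In these cells Cre removes exon 3 of 1 Ctnnb1 allele, which leaves a β-catenin that escapes degradation. The 3 control cultures (Control) had received an adenovirus carrying GFP (AdGFP). Their genotype label is +/+, whereas the study's text describes fibroblasts with the same transgene, and the treatment label gives AdCre at 366 to 500 MOI (multiplicity of infection) for every culture, so these labels disagree with each other. The study's methods give 366 to 500 MOI for AdCre and 366 MOI for AdGFP, so the dose of virus may also have differed. By the group labels, stabilized β-catenin and Cre recombinase were present in the same 3 cultures. Their effects on these genes cannot be told apart, nor from an effect of the virus dose. Of 4 animals, 2 gave both a control and a GOF culture (Control 0 with GOF 2, and Control 2 with GOF 0), and Control 1 and GOF 1 came from different animals. By these animal labels, Control 0 and Control 2 had the same inherited genotype as the GOF cultures of their animals. For these controls that goes with the study's text and against the +/+ label, and it leaves Control 1 open.

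Cells repair a break through both DNA strands either by homologous recombination, which copies the intact sister chromatid, or by end joining, which ligates the ends directly. Recombination starts with resection of the ends, after which BRCA2 and its partners prepare the resected strand for strand exchange. It works mainly in S and G2 phase, when a sister is present, and many of its genes are transcribed mainly in cycling cells. The Fanconi pathway uses a nuclear core complex to attach ubiquitin to FANCD2 and FANCI at crosslinked DNA and then hands the lesion to recombination. The kinases ATM and ATR signal breaks and stalled replication forks to the checkpoint kinases CHEK2 and CHEK1.

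The libraries held between 35980831 and 42834467 assigned fragments each. Axin2, a direct target of β-catenin, rose from 0.152 ± 0.0218 FPKM (fragments scaled to transcript length and library size; SD, n = 3) to 17.5 ± 2.65 FPKM, with a log2 fold change of 6.98 ± 0.26 (standard error) and an adjusted p of 4.95e-05 in edgeR. Ctnnb1 itself stood at 267 ± 16.3 FPKM in controls and 263 ± 28.8 FPKM in GOF, a value over the whole gene that does not read the loss of 1 exon. The 10 dermal fibroblast markers summed to between 2605 and 4000 FPKM in every library, with Dcn and Col1a2 lower and Vim higher in GOF, and the 7 keratinocyte markers to at most 0.562 FPKM. Among other cell types, the 5 muscle markers summed to 23.3 to 27.6 FPKM in controls and 138 to 172 FPKM in GOF. Nearly all of it was Acta1, while Myod1 and Myog were at or near 0. The 4 melanocyte markers summed to 3.13 to 7.62 FPKM in controls and 0.928 to 2.29 FPKM in GOF. Most of this was Mlana, the only one called (log2 fold change -2.48). Tyr, with every GOF library above every control (1.33), and Pmel (-0.40) were not called, and Dct was at or near 0. The 5 macrophage markers summed to 10.8 to 19.3 FPKM in controls and 8.55 to 24.8 FPKM in GOF, with Csf1r higher in GOF (log2 fold change 1.52), and the 5 endothelial markers to 2.81 to 3.46 FPKM in controls and 2.39 to 4.22 FPKM in GOF, with Kdr higher (1.77) and Tek lower (-2.27). The part of these other cell types in the results below was not tested.

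Of the 43 genes, 15 (34.9%) fell in GOF fibroblasts and none rose, at an adjusted p under 0.05 in edgeR's quasi-likelihood test. Among all genes tested, 10.2% were called lower and 11.1% higher. The 15 were Brca1, Bard1, Xrcc2, Rad54b, Blm, Exo1, Brip1, Fance, Fancf, Fancd2, Fanci, Atm, Atr, Clspn and Timeless. In 11 of them, all but Xrcc2, Fance, Atm and Atr, the fall was larger than 2-fold, against 5.64% of all genes tested. The largest was in Fanci, 3.44-fold lower in GOF, and the smallest called was in Fance, 1.45-fold lower. The count of genes higher in GOF was also 0 at an unadjusted p under 0.05, in DESeq2 and in limma, whereas 22 were lower at an unadjusted p under 0.05. Among all 15462 genes tested, 2671 were lower and 2728 higher at that unadjusted threshold.

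The median log2 fold change of the 43 genes was -0.50, beside -0.02 for all genes tested, and 37 of the 43 estimates were negative. FPKM values in the GOF libraries lay wholly below those in the controls for 21 of the 43 genes, against 19.2% of all genes tested. For none of the 43 did they lie wholly above, whereas they did for 3143 of all 15462 genes tested. Levels were low in general, since 20 of the 43 genes were under 2.5 FPKM in controls and 5 under 1 FPKM. Summed over the 43 genes, the level was 193 to 209 FPKM in the control libraries and 159 to 167 FPKM in the GOF libraries, so the summed levels did not overlap. In RNA from whole cultures, fewer cells that express a gene and less of its RNA in each cell cannot be told apart.

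**Figure D1:**
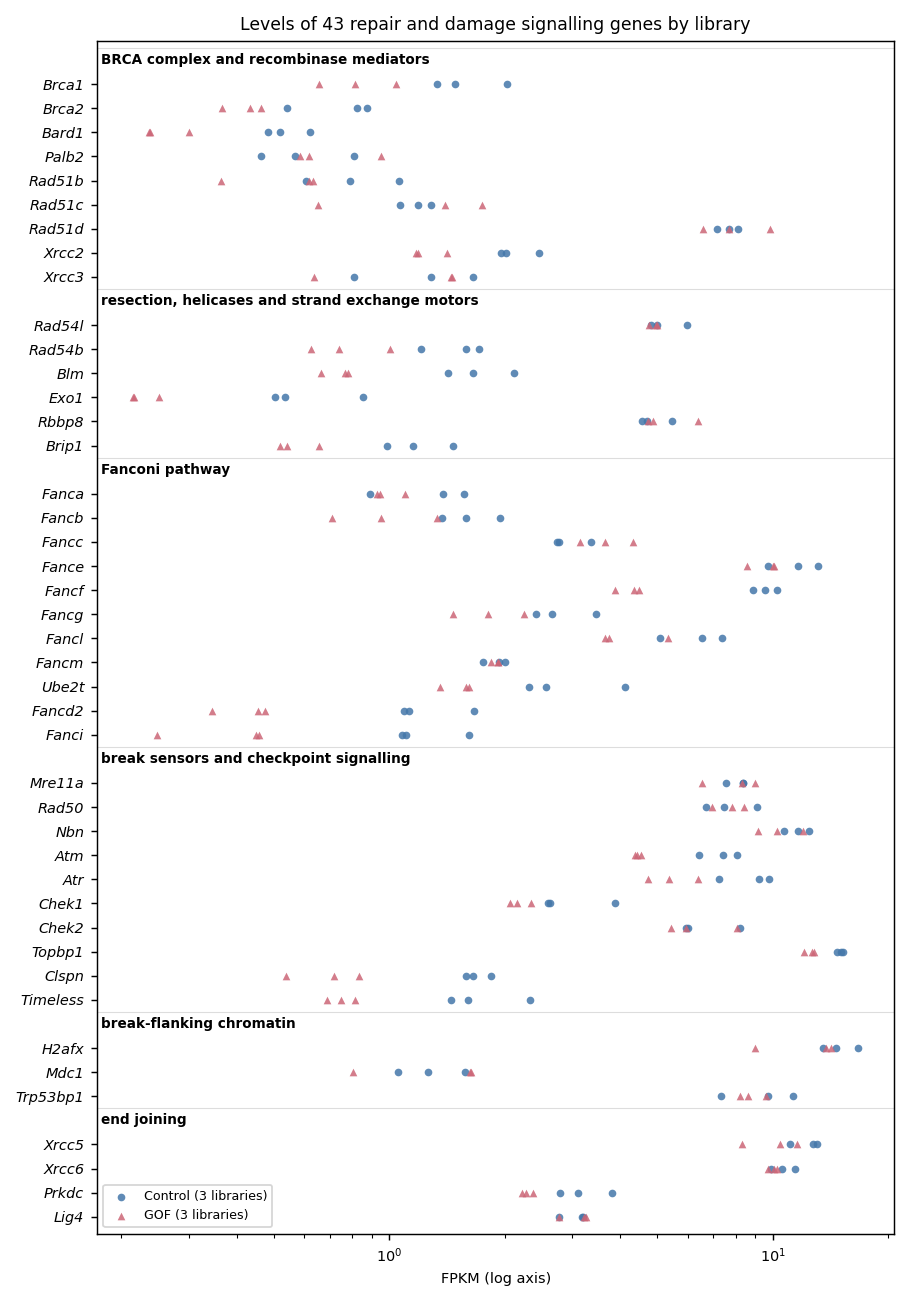
Level of each of the 43 genes in FPKM (log axis) in each of the 3 control libraries (circles) and 3 GOF libraries (triangles), ordered by role. The groups do not overlap for 21 genes, with GOF lower in each, and the end joining and chromatin genes sit mostly on top of each other.

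Control 0 and GOF 2 came from one animal, and Control 2 and GOF 0 from another, so each animal gives a ratio of its own. All 15 genes called lower had a lower FPKM in GOF in both animals. These libraries also made the calls, so the ratios are no separate support. For 14 of the 15 every GOF library was below every control, which fixes both ratios below 1. Over the 43 genes, both animals were lower for 29, both higher for 3 and the 2 animals disagreed for 11. Over all 15462 genes tested the corresponding counts were 5547, 5765 and 4147.

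**Figure D2:**
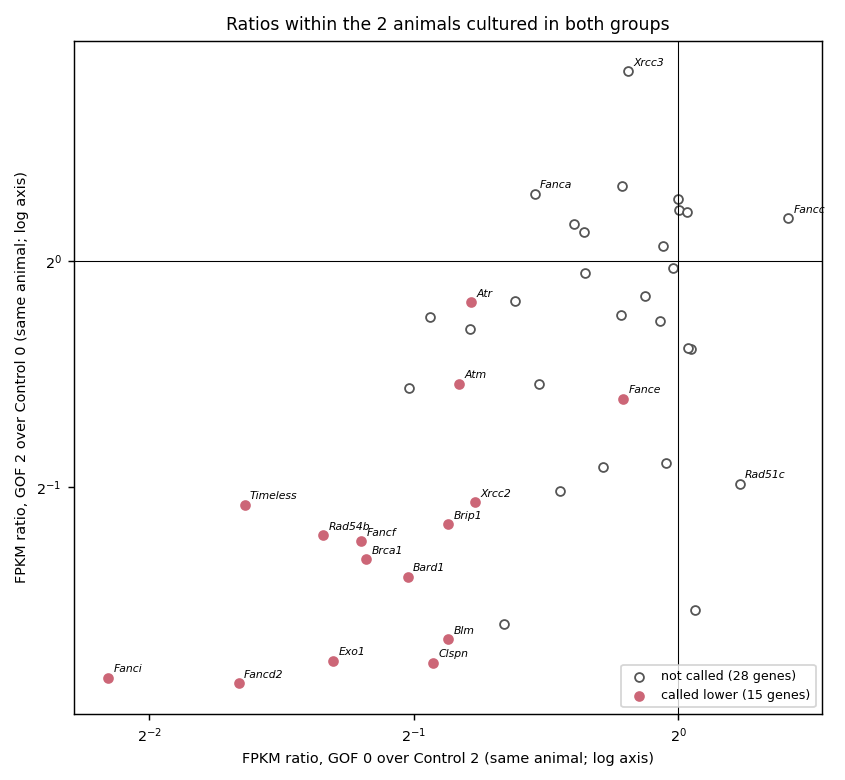
Ratio of FPKM in GOF to FPKM in control within each of the 2 animals cultured under both conditions (log axes). Each point is 1 of the 43 genes. The 15 genes called lower (filled) all lie below a ratio of 1 in both animals, with Fanci at 0.225 and 0.279. The libraries plotted were also used for the calls.

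Sequence just upstream of the annotated starts was read for those of the 43 genes with a promoter window, because recombination and cell cycle genes are known to share promoter elements. The RefSeq promoter windows (300 bases, 250 of them before the start; build GRCm38.p6) held 33 of the 43 genes in 37 windows. CCAAT, the letters bound by the factor NF-Y, was searched on both strands, as were the E2F-type letters TTTCGCGC, TTTGGCGC and TTTCCCGC and the cell cycle letters TTTGAA. None of these motifs contains another. The upstream stretches of 3 genes that fell and of Brca2, which missed the threshold, are printed 5′ to 3′ on the strand of the gene, with capitals marking CCAAT or its reverse complement ATTGG in the first 3 and the reverse complement of TTTCCCGC in Brca2.
Fancf (chr7:51862268-51862430, minus strand): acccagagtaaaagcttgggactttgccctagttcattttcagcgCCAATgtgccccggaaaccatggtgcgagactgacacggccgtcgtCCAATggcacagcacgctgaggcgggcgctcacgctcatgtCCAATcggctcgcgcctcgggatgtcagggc
Brip1 (chr11:86201194-86201337, minus strand): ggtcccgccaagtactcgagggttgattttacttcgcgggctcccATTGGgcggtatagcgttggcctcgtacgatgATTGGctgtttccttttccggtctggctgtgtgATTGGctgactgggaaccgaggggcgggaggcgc
Brca1 (chr11:101551992-101552086, minus strand): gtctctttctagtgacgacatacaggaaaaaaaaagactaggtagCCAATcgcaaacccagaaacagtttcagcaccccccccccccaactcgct
Brca2 (chr5:150522408-150522505, plus strand): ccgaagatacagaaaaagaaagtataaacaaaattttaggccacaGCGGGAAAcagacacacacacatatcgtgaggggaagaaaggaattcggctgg

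Fancf and Brip1 each held CCAAT letters 3 times within 113 and 94 bases of the start, and Brca1 held them once, 81 bases before it. Repeats were not limited to genes that fell, since Xrcc3 and Ube2t, which were not called, also held CCAAT letters repeatedly. No stretch is printed for Fanci and Fancd2, which had the largest falls. CCAAT was present in 23 of the 37 windows (62.2%), against 37.4% of the 32851 windows of all genes. Any of the 3 E2F-type motifs was present in 10 of the 37 windows (27.0%), against 1.84% of all windows, and TTTGAA in 2 of the 37, against 17.9%. Windows with an E2F-type motif numbered 2 of 11 among the genes called lower and 8 of 26 among those not called, and windows with CCAAT numbered 7 of 11 and 16 of 26. These counts describe the letters of the window, without a test, and windows of the same gene overlap.

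In the BRCA complex and the recombination mediators, 3 of 9 genes fell (33.3%, beside 10.2% of all genes tested). Brca1, a ubiquitin ligase that promotes resection, stood at 2.03, 1.33 and 1.49 FPKM in Control 0, 1 and 2 and at 0.656, 1.04 and 0.813 FPKM in GOF 0, 1 and 2. Every GOF library was below every control. Its log2 fold change was -1.27 ± 0.18 (edgeR, adjusted p = 0.00347), the smallest adjusted p of the group. Bard1, the obligate partner of BRCA1 in that ligase, stood at 0.620, 0.520 and 0.484 FPKM in controls and 0.238, 0.300 and 0.236 FPKM in GOF, again without overlap, with a log2 fold change of -1.06 ± 0.25 (adjusted p = 0.0210). Xrcc2, a recombination mediator, also fell, with a log2 fold change of -0.76 ± 0.20 (adjusted p = 0.0349).

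The other 6 genes of this group did not pass the test. Brca2, a mediator that acts on resected DNA, was just outside the threshold at a log2 fold change of -0.81 ± 0.24 (adjusted p = 0.0523), although its GOF levels of 0.367 to 0.463 FPKM all lay below the control levels of 0.541 to 0.876 FPKM. With the animal as a block, where the difference rests only on the animals cultured in both groups, it passed at -0.86 (adjusted p = 0.0275). Without Control 0 it passed at -0.998 (adjusted p = 0.0195). In 10 of the 15 alternative fits that tested Brca2 it did not pass. Over the 6 fits that each left out a library, its values were -0.998 to -0.65, with adjusted p up to 0.163. Rad51d, which acts in a complex with XRCC2, had the largest adjusted p of the group, and its levels were 8.13, 7.14 and 7.68 FPKM in controls and 7.67, 6.57 and 9.81 FPKM in GOF, which overlapped fully. The log2 fold changes of Rad51d, Rad51c, Palb2, Xrcc3 and Rad51b were 0.01, 0.02, -0.08, -0.18 and -0.49. Palb2, which joins BRCA1 to BRCA2, had a higher mean FPKM in GOF (0.718 ± 0.200 against 0.613 ± 0.177; SD, n = 3) although its estimate from fragments was below 0. Unlike fragment counts, FPKM also depends on the transcript lengths assigned to the gene.

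Bard1 fell short of the threshold without Control 1, GOF 0 or GOF 2, with adjusted p up to 0.0819 and log2 fold changes of -1.22 to -0.95 over the 6 fits that each left out a library. Xrcc2 fell short in all of these but the fit without GOF 1, with values of -0.89 to -0.63 and adjusted p up to 0.115.

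In the group of resection, helicases and strand exchange motors, 4 of 6 genes fell, each by more than 2-fold. Among all genes tested 10.2% fell, and 5.64% by more than 2-fold. Exo1, an exonuclease that resects breaks and also serves mismatch repair, had 0.854, 0.505 and 0.535 FPKM in controls and 0.216, 0.215 and 0.251 FPKM in GOF. Its log2 fold change of -1.48 ± 0.27 (edgeR, adjusted p = 0.00824) was the largest of the group. Blm, the Bloom syndrome helicase that dissolves recombination intermediates, went from 2.12, 1.66 and 1.42 FPKM to 0.778, 0.767 and 0.665 FPKM (log2 fold change -1.23 ± 0.21, adjusted p = 0.00721). Every GOF library was below every control in both genes.

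Brip1, a helicase that binds BRCA1 and belongs to the Fanconi pathway as well, had 1.47, 1.15 and 0.987 FPKM in controls and 0.540, 0.520 and 0.655 FPKM in GOF (log2 fold change -1.06 ± 0.21, adjusted p = 0.0105). Rad54b, a motor related to RAD54, had 1.71, 1.21 and 1.59 FPKM in controls and 0.626, 1.002 and 0.739 FPKM in GOF (log2 fold change -1.08 ± 0.25, adjusted p = 0.0217). It overlaps Fsbp on the same strand over 7927 bases, so fragments from the shared stretch could belong to either gene. Rad54l, the main RAD54 motor, was not called, unlike its relative. It stood at 5.98, 4.82 and 4.98 FPKM in controls and 4.76, 4.96 and 4.98 FPKM in GOF, with a log2 fold change of -0.04 ± 0.12 (adjusted p = 0.859). Rad54l overlaps Lrrc41 on the opposite strand over 2780 bases, so its values could include fragments of that gene. Rbbp8, the resection factor CtIP, was at 4.56 to 5.46 FPKM in controls and 4.72 to 6.39 FPKM in GOF and did not pass the test, with a log2 fold change of 0.11. Rad54b fell short of the threshold without Control 1, Control 2 or GOF 0 (adjusted p up to 0.0836, log2 fold changes of -1.27 to -0.95 over the 6 fits) and Brip1 only without GOF 0 (adjusted p = 0.0520, log2 fold changes of -1.16 to -0.87).

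In the Fanconi pathway, 4 of 11 genes fell (36.4%, beside 10.2% of all genes tested), among them both targets of its ubiquitin ligase. Fanci, which forms a clamp on DNA together with FANCD2, had 1.61, 1.08 and 1.11 FPKM in controls and 0.248, 0.458 and 0.450 FPKM in GOF, a log2 fold change of -1.78 ± 0.28 (edgeR, adjusted p = 0.00512). Fancd2 had 1.66, 1.13 and 1.09 FPKM in controls and 0.345, 0.474 and 0.456 FPKM in GOF, a log2 fold change of -1.59 ± 0.26 (adjusted p = 0.00578). These were the largest changes among all 43 genes. Within the 2 animals cultured under both conditions, GOF to control ratios were 0.225 and 0.279 for Fanci and 0.316 and 0.275 for Fancd2. Ube2t, the enzyme that supplies the ubiquitin for both, stood at 2.31 to 4.12 FPKM in controls and 1.36 to 1.62 FPKM in GOF without overlap but did not pass the test (log2 fold change -0.83 ± 0.27, adjusted p = 0.0628).

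Fancf, an adaptor of the core complex encoded by a gene of a single exon, had the smallest adjusted p of the 43 genes, 0.00275. Its levels were 10.3, 9.51 and 8.88 FPKM in controls and 3.87, 4.47 and 4.35 FPKM in GOF, and its log2 fold change was -1.20 ± 0.16. The separation between the groups was much wider than the spread within either, 9.55 ± 0.692 against 4.23 ± 0.320 FPKM (SD, n = 3). Fance, another core member, was called at a log2 fold change of -0.54 ± 0.15 (adjusted p = 0.0383), but its groups overlapped in FPKM (9.73 to 13.1 in controls and 8.58 to 10.1 in GOF). The call was lost with the animal as a block (-0.57, adjusted p = 0.0926) and on leaving out any of the 6 libraries (-0.60 to -0.43, adjusted p up to 0.0989).

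The other core complex genes did not pass the test. Their log2 fold changes were -0.72 for Fancb, -0.57 for Fancg, -0.56 for Fancl, which carries the ligase activity, -0.50 for Fanca and 0.25 for Fancc. Fancm, the motor that recruits the core complex to crosslinks, had the largest adjusted p of all 43 genes. It stood at 1.76, 1.93 and 2.002 FPKM in controls and 1.92, 1.92 and 1.84 FPKM in GOF, means of 1.90 in each group (log2 fold change 0.00 ± 0.13, adjusted p = 0.994). Fanci overlaps Polg over 4034 bases, Fancd2 overlaps Fancd2os over 257 bases and Fancf overlaps Gas2 over 253 bases, in each case on the opposite strand. The strand setting of the authors' counting is not given in the sources used here, so fragments of these partners could have been counted with them. Of the 43 genes, 12 overlap a protein-coding gene and 4 of these were called lower, so the same limit holds for genes not called. Among those, Xrcc6 overlaps Desi1 over 41340 bases and Trp53bp1 overlaps Tubgcp4 over 5490 bases.

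Among the break sensors and checkpoint genes, 4 of 10 fell, beside 10.2% of all genes tested. Clspn (claspin), which ATR needs to activate CHEK1, had 1.84, 1.65 and 1.58 FPKM in controls and 0.833, 0.719 and 0.538 FPKM in GOF, a log2 fold change of -1.28 ± 0.19 (edgeR, adjusted p = 0.00388). Timeless, a fork protection factor that works with claspin, had 1.45, 1.60 and 2.33 FPKM in controls and 0.747, 0.812 and 0.686 FPKM in GOF, a log2 fold change of -1.21 ± 0.24 (adjusted p = 0.0120). The groups did not overlap for either gene. The Timeless call was lost with the animal as a block (-1.04, adjusted p = 0.0511) and without Control 1 or GOF 0 (-1.16 and -1.18, adjusted p 0.0530 and 0.0545).

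The apical kinases fell by less. Atm, which responds to breaks, went from 6.43 to 8.05 FPKM in controls to 4.36 to 4.54 FPKM in GOF (log2 fold change -0.61 ± 0.13, adjusted p = 0.0145), and Atr, which responds to stalled forks, from 7.22 to 9.76 FPKM to 4.74 to 6.37 FPKM (-0.57 ± 0.11, adjusted p = 0.0113). Both calls were lost without Control 1, Control 2 or GOF 0, with adjusted p up to 0.0653 for Atm and 0.0568 for Atr and log2 fold changes between -0.69 and -0.52. The kinases downstream of them did not pass the test, with log2 fold changes of -0.47 ± 0.26 for Chek1 and -0.07 ± 0.19 for Chek2.

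Topbp1, the activator of ATR, was at 15.04, 15.2 and 14.7 FPKM in controls, the highest control mean of the 43 genes, and 12.6, 12.0 and 12.8 FPKM in GOF. Although its groups did not overlap, its log2 fold change was -0.20 ± 0.10 and it did not pass the test (adjusted p = 0.200). Its values per library are given outside the rule for named genes and were chosen after they were seen. The 3 genes of the MRN complex, which binds broken ends and activates ATM, had log2 fold changes of -0.08 (Mre11a), 0.02 (Rad50) and -0.13 (Nbn). Rad50, with the largest adjusted p of the group (0.945), stood at 6.68, 7.44 and 9.07 FPKM in controls and 7.83, 6.93 and 8.40 FPKM in GOF.

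**Figure D3:**
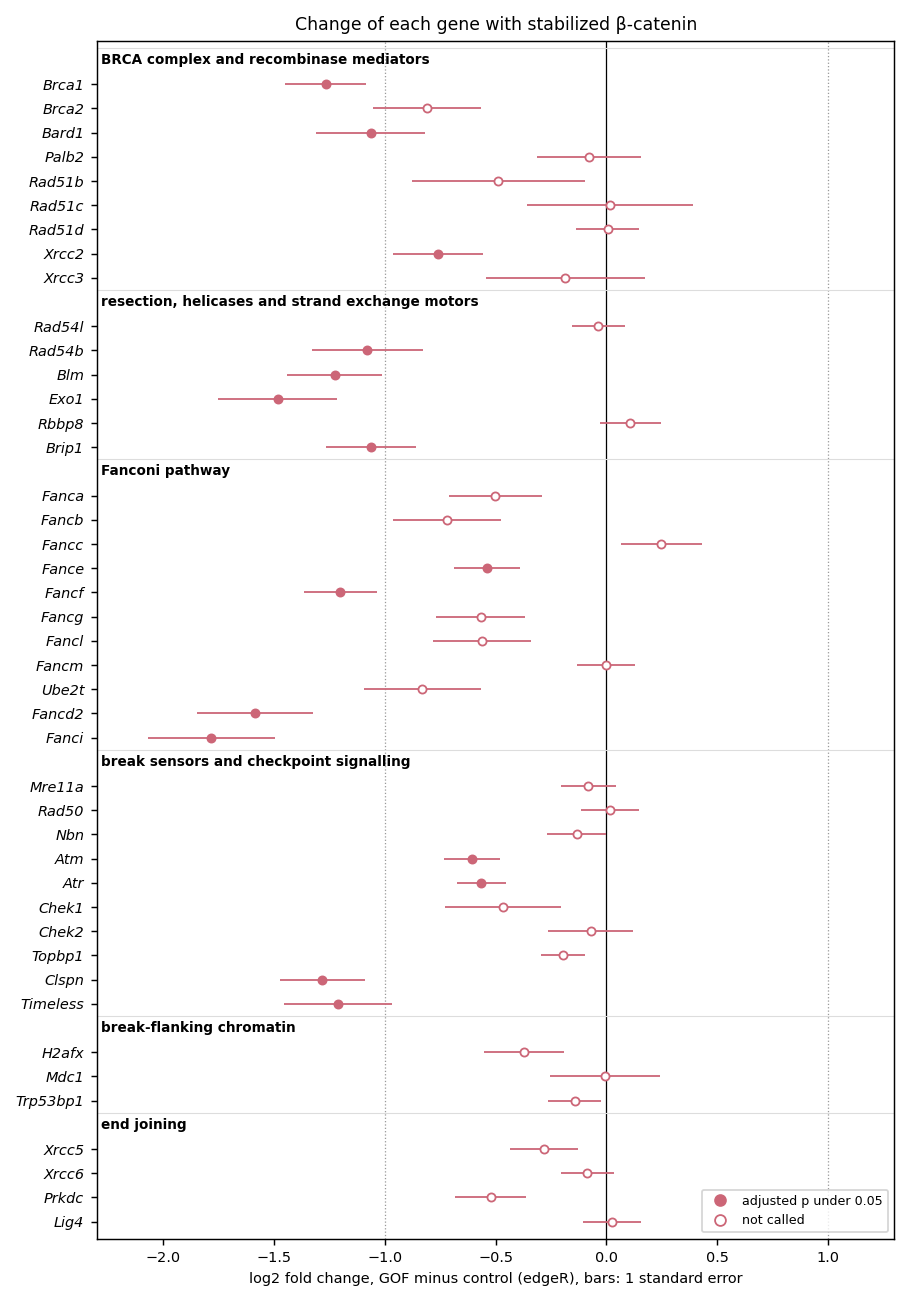
Log2 fold change of each of the 43 genes, GOF minus control, from edgeR, with bars of 1 standard error. Filled points are the 15 genes with an adjusted p under 0.05, all lower in GOF, and dotted lines mark a 2-fold change; Fanci lies farthest to the left at -1.78.

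None of the 3 genes of break-flanking chromatin and none of the 4 end joining genes passed the test in either direction. The shares of all genes tested were 10.2% lower and 11.1% higher, and in groups this small the absence of calls is near them. H2afx, the histone variant that ATM and its relatives phosphorylate beside a break, stood at 16.7, 13.5 and 14.6 FPKM in controls and 14.1, 13.8 and 8.98 FPKM in GOF, where GOF 2 alone was far lower (log2 fold change -0.37 ± 0.18, edgeR, adjusted p = 0.187). Mdc1, the reader of that mark, had 1.05, 1.26 and 1.58 FPKM in controls and 1.62, 1.63 and 0.806 FPKM in GOF (-0.01 ± 0.25, adjusted p = 0.989), again with GOF 2 the lowest of the 6 libraries. Trp53bp1 (53BP1), which shields ends from resection, had a log2 fold change of -0.14 ± 0.12.

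Prkdc, the catalytic subunit of the DNA-dependent protein kinase, came closest among the end joining genes. Its levels were 2.79, 3.11 and 3.82 FPKM in controls and 2.21, 2.37 and 2.27 FPKM in GOF, without overlap (log2 fold change -0.52 ± 0.16, edgeR, adjusted p = 0.0554). It passed without Control 0 (-0.63, adjusted p = 0.0277) and with the animal as a block (-0.62, adjusted p = 0.0343). The block fit rests only on the animals cultured in both groups. In 12 of the 16 alternative fits Prkdc did not pass. Over the 6 fits that each left out a library, its values were -0.63 to -0.38, with adjusted p up to 0.181. Xrcc5 and Xrcc6, which encode the Ku heterodimer that caps broken ends, had log2 fold changes of -0.28 ± 0.15 and -0.09 ± 0.12. Lig4, the ligase of this pathway, stood at 2.77, 3.20 and 3.18 FPKM in controls and 3.25, 2.77 and 3.22 FPKM in GOF (0.03 ± 0.13, adjusted p = 0.915). A p that misses the threshold does not show that these levels were equal, and the median standard error over the 43 genes was 0.19 on the log2 scale.

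The rest of the repair machinery was described with lists of other genes. Of 48 tested genes of recombination, end joining and crosslink repair outside the 43, 9 (18.8%) were lower and 0 higher, with a median log2 fold change of -0.21. Among all genes tested, 10.2% were lower and 11.1% higher. At an unadjusted p under 0.05 the count of higher genes was 0 too, beside 2728 of all 15462 genes tested. The called genes with the smallest adjusted p were Polq, the polymerase of microhomology-mediated joining (-1.03), and Dclre1a, a crosslink repair nuclease (-0.58). They were followed by Rad51ap1 (-1.53) and Usp1, which removes ubiquitin from FANCD2 (-0.54).

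Of 40 tested genes of excision and mismatch repair, 5 (12.5%) were lower and 5 (12.5%) higher, shares near those of all genes tested (10.2% and 11.1%). Ercc5, the XPG endonuclease of nucleotide excision repair, rose (log2 fold change 0.87), and Mutyh and Neil3, glycosylases of base excision repair, and Parp1, a sensor of nicked DNA, fell (-1.70, -1.72 and -0.54).

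Genes of the cell cycle and p53 targets moved as well. Of 25 genes of G2 phase and mitosis, 23 (92.0%) were lower and 0 higher, with a median log2 fold change of -1.29. Of 26 S phase genes 9 (34.6%) were lower and 0 higher, with a median of -0.54. The S phase values were near the 34.9% and -0.50 of the 43 repair genes, beside 10.2% lower and 11.1% higher among all genes tested. The G2 and mitosis genes with the smallest adjusted p were Mki67 (-1.65), Plk1 (-1.44), Cenpe (-1.13) and Kif23 (-1.60), and the S phase genes were Uhrf1 (-1.63), Cdc6 (-1.66), Pola1 (-0.86) and Prim1 (-1.21). Summed over the 25 genes of G2 and mitosis, the level was 366, 216 and 218 FPKM in Control 0, 1 and 2 and 112 to 123 FPKM in GOF, so Control 0 stood well above the other controls. Without Control 0, 15 of the 43 repair genes were lower and 8 of them by more than 2-fold. Of these 15, 13 were also called with all libraries, while Xrcc2 and Fance were lost and Brca2 and Prkdc gained. The part of these cell cycle changes in the lower repair genes was not tested.

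Of 24 p53 target genes, 9 (37.5%) were higher and 2 (8.3%) lower, beside 11.1% and 10.2% of all genes tested. Their median log2 fold change was 0.48. Pmaip1 (NOXA), Tnfrsf10b and Pidd1, which act in cell death, rose (1.66, 1.15 and 1.71), and Sesn1 fell (-1.09). Their summed level was 1089 to 1436 FPKM in controls and 1575 to 2666 FPKM in GOF, highest in GOF 2. The part of these changes in the values of the repair genes was not tested.

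**Figure D4:**
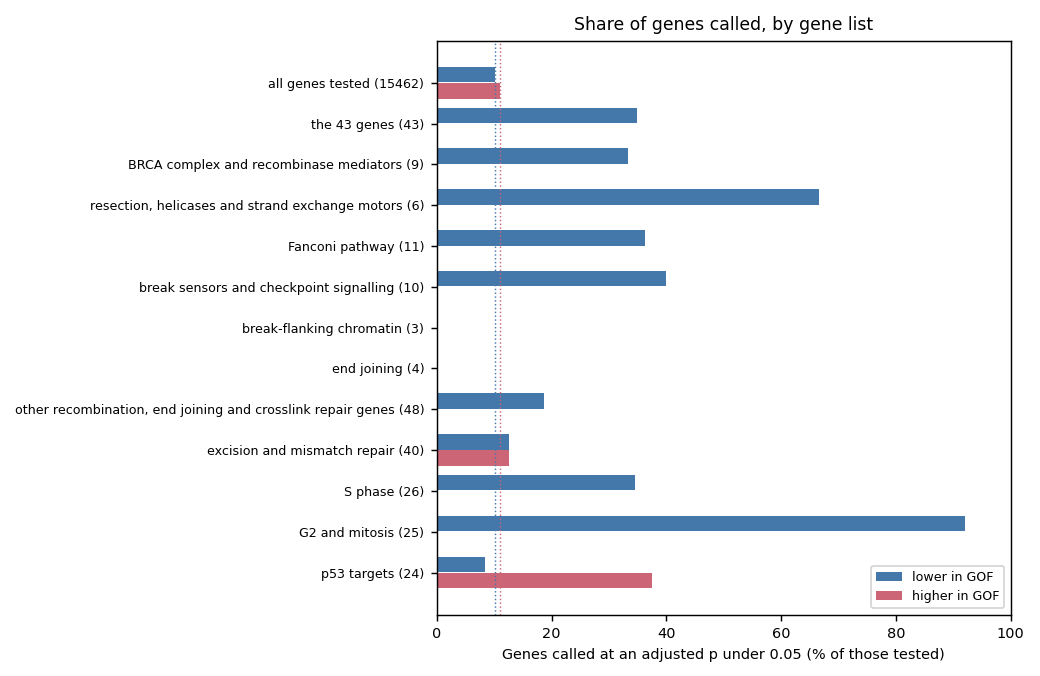
Share of the tested genes of each list called lower (blue) or higher (red) in GOF at an adjusted p under 0.05, in percent, with the number tested in parentheses and dotted lines at the shares of all genes. The 43 genes stand at 34.9% lower and 0 higher, the G2 and mitosis genes at 92.0% lower, and the p53 targets at 37.5% higher.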

How the data were processed

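Libraries were made from total RNA with a TruSeq kit, which the labels call stranded. The authors aligned reads with TopHat (build mm10) and used Cuffdiff for quantification, per the labels and methods. The deposited table gives, per gene and replicate, estimated counts (fragments before scaling, 4.95% of them not whole) and FPKM values scaled between libraries by the authors. Versions, annotation release and strand setting are not given in the sources used here. The lncRNA table and 3 further value columns were not used, and protein features were not analysed here.

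Symbols came from the GENCODE gene names, which matched 97.9% of the 41126 identifiers, and 32 genes with a failed estimate were left out, none of them among the 43. Estimated counts were rounded and tested with edgeR 4.0.16 (TMM, filterByExpr, quasi-likelihood test, Benjamini-Hochberg over 15462 genes, all 6 libraries, group only), and called at an adjusted p under 0.05. On FPKM alone, 3 against 3 libraries allow no exact two-sided permutation p below 0.1. On simulated data for this comparison, 109 of 200 genes changed 2-fold were recovered, with 5 others called among 15252 genes in all. The simulation took each gene's spread from the trend over expression level and held no pairing by animal. It also changed far fewer genes than were called in the data, so these rates need not hold for the data.

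Animal identifiers in the labels pair 2 libraries of each group. Deviations from the group means correlated within these animals (r = 0.41 and 0.46), but not between equal label numbers (-0.41, 0.05 and -0.44). The animal was therefore the block in an alternative fit, which had only 1 residual degree of freedom. Control 1 and GOF 1, each the only library of its animal, do not inform the group difference in that fit. The main test behind the calls was by group only and did not use this pairing. Other alternatives were DESeq2 1.42.0, other scalings and filters, limma 3.58.1 on log2(FPKM + 1) and log2(FPKM + 0.1), and leaving out each library.

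The genes and lists were chosen with earlier results of these data known. Values per library are given for genes past an adjusted p of 0.05 and 2-fold, and in each role for the smallest and largest adjusted p. From other lists, up to 4 called genes with the smallest adjusted p are named. Of the listed symbols 2 older ones were not found. The p-values measure the spread between these 6 cultures.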

Additional observations from a re-analysis of the deposited data

How the results depend on the processing

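Of the 15 genes called lower, 6 kept their call in all 16 alternatives (Brca1, Blm, Fancf, Fancd2, Fanci and Clspn), and Exo1 kept it in the 15 that tested it. No called gene changed sign, and none of the 43 was called higher under any. Of the 28 not called, 23 were called in no alternative that tested them. The count lower was 20 in DESeq2, 17 with library totals or upper-quartile scaling, 15 with DESeq2 size factors and 12 with a minimum of 1 FPKM, under which 37 of the 43 were tested and Brca2, Bard1, Palb2, Rad51b, Exo1 and Brip1 were not. Counts past 2-fold were 1 in limma on log2(FPKM + 1), with a median change of -0.28, and 7 on log2(FPKM + 0.1), fits that changed both the unit and the scale. Leaving out each library gave 7 to 15 lower (8 without Control 1, 7 without GOF 0) and 7 to 11 past 2-fold. For all genes these counts were 756 to 1830 lower and 925 to 1896 higher, for the 88 other repair genes 3 to 13 lower and 1 to 4 higher, and for the 51 cell cycle genes 17 to 30 lower. The lowest of each came without GOF 0, except for the higher calls over all genes, where it came without Control 1. Other repair genes numbered 14 lower and 5 higher, and became 9 lower with a minimum of 1 FPKM, 3 higher in either limma fit and 3 higher with the animal block. A replicate block by label number left 9 of the 43 lower, 760 of all genes lower and 935 higher, 4 other repair genes lower and 1 higher, and 21 cell cycle genes lower, but the label numbers do not pair these cultures. With the animal block 15 were lower, 13 of them shared, and the changed calls of Fance, Timeless, Brca2 and Prkdc are given above. Signs turned only in 10 genes that were not called, with log2 fold changes mostly near 0. In DESeq2 and with its size factors these were 0.00885 and 0.00925 for Fancm and 0.00461 and 0.00458 for Mdc1, and with a minimum of 1 FPKM 0.00293 for Fancm. In limma with pseudocounts of 1 and 0.1 they were 0.000866 and 0.00177 for Fancm, 0.0190 and 0.0115 for Mdc1 and 0.0899 and 0.199 for Palb2, and with 0.1 it was -0.00215 for Rad51c. With library totals and then upper-quartile scaling they were -0.0194 and -0.0356 for Rad51c, -0.0420 and -0.0489 for Rad51d, -0.0333 and -0.0373 for Rad50, and -0.0229 and -0.0293 for Lig4. The number block gave -0.108 for Rad51c and -0.00456 for Rad51d, and the animal block -0.474 for Rad51c and 0.261 for Xrcc3. Leaving out a library gave -0.161 to 0.0369 for Palb2, -0.0859 to 0.0266 for Rad54l, -0.0922 to 0.125 for Rad50, -0.206 to 0.112 for Chek2, -0.0482 to 0.0623 for Lig4, -0.389 to 0.342 for Rad51c, -0.118 to 0.0943 for Rad51d, -0.0683 to 0.0723 for Fancm, -0.209 to 0.216 for Mdc1 and -0.414 to 0.0891 for Xrcc3. The cause of these shifts was not tested. Depth limits the low genes, where single libraries held as few as 18 fragments.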
